A study of Mus musculus with 15 samples.

Results

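The genes described here are Tgm2 and 8 genes of the retinoic acid pathway, Rara, Rarb, Rarg, Crabp1, Crabp2, Cyp26a1, Dhrs3 and Stra6, 9 of the 55228 genes listed in each library. Tgm2 was chosen by its measured level, for its large rise after 48 h of knockdown, and the other 8 genes for their place in the pathway. Earlier results of these data were known when all 9 were chosen. RNA was sequenced from 81K1 cells, a mouse embryonic stem cell (mESC) line made from 1 clone (K1) of the OG2 line, with an shRNA against Smarcb1 inserted at Rosa26 under a promoter that doxycycline switches on. The Smarcb1 protein is part of BAF, a complex that moves nucleosomes. All 5 groups of 3 libraries carried this cassette and were grown with leukaemia-inhibitory factor, serum and gelatine. The 48 h ctrl and 240 h ctrl groups received no doxycycline. The 48 h kd, 72 h kd and 240 h kd groups received doxycycline at 1 µg per ml, renewed daily, for the time in their name. The 72 h kd libraries have no control of their own, and a line that lacks the shRNA but received doxycycline was not analysed here.

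Retinoic acid is made from vitamin A (retinol) by successive oxidations, carried to the nucleus by small binding proteins, and bound there by retinoic acid receptors (RARs), which sit on DNA paired with retinoid X receptors and switch from holding genes off to turning them on. The sites they bind are direct repeats of a short half-site, and some of the best-known targets, such as Rarb and Cyp26a1, act back on the pathway. In mESC, added retinoic acid is a widely used trigger of neural differentiation, and Tgm2, a transglutaminase that cross-links proteins, is a long-known target in many cell types.

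The promoters of Cyp26a1 and Rarb are shown because they were the only 2 among the 7 members with a promoter entry (16 windows, from RefSeq on GRCm38.p6, 250 bases before to 50 after a transcription start) that held a direct repeat at the spacing of 5 bases. The search used the half-site AGGTCA, its variant GGGTCA, and likewise AGTTCA with the variant GGTTCA, in any pairing, at spacings of 1, 2 and 5, on both strands. Tgm2 and Crabp2 have no entry. Capitals mark the 2 half-sites of the repeat, and both sequences read 5′ to 3′ along the gene's strand. The Cyp26a1 stretch (chr19:37697558-37697797, plus strand) ends at the base before the gene's annotated start, and its repeat lies on the opposite strand, where it reads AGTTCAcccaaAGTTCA. The Rarb stretch (chr14:16575507-16575535, minus strand) is cut to the repeat and 6 bases on each side, since an annotated transcript already covers it.
Cyp26a1: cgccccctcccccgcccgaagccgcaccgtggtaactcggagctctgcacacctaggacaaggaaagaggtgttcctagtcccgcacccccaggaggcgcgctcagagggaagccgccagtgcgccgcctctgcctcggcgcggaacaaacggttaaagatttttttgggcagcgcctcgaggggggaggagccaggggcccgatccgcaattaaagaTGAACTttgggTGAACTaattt
Rarb: gggaagGGTTCAccgaaAGTTCActcgca
Among all 32851 promoter windows of the same length, 32 (0.097%) held such a repeat at spacing 5, 88 (0.268%) at spacing 2 and 73 (0.222%) at spacing 1. No member's window held one at spacing 1 or 2. A match is only a run of letters, and the windows leave out enhancers.

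Levels are given in RPM, the reads of a gene per 1000000 reads of its library, which is the deposited FPKM multiplied by the gene's span in kilobases. The libraries held 11074998 to 14515300 reads. Smarcb1 lay at 82.2 to 97.8 RPM in the 6 ctrl libraries and at 12.5 to 20.4 RPM in the 9 kd libraries, with no overlap. The labelled cell type was checked against 8 markers of embryonic stem cells, which summed to between 4077 and 5142 RPM in every library, with none at 0. The 240 h kd libraries were lowest, at 4077 to 4121 RPM against 4499 or more in the other groups, and Esrrb (-0.80) and Zfp42 (-0.58) were called lower there by the rule given below. Zfp42 stood at the size threshold of that rule, and a second fit, limma voom on the recovered reads, called 1 of the 8. The part of these markers in the 240 h values was not tested. Replicate libraries differed by more than sampling noise, and nothing states that they came from separate cultures, so p-values measure only the spread between these libraries. The 48 h kd replicate 2 library stood somewhat apart, with 2.53% mitochondrial reads against 0.507% to 1.95% in the other 14. In bulk RNA, fewer cells expressing a gene and less RNA per cell cannot be told apart.

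Tgm2 (ENSMUSG00000037820.15, chr2:158116402-158146436, minus strand) had 26.0, 27.0 and 31.0 RPM in 48 h ctrl, or 299 to 356 reads per library. In the 48 h kd libraries it had 197, 163 and 201 RPM. After 72 h of knockdown the values were 304, 296 and 316 RPM, from 3656 to 4198 reads each. These are the libraries, or share the controls, on which Tgm2 was chosen, so the log2 differences of 2.73 at 48 h (SE 0.09) and 3.45 at 72 h (SE 0.05) against 48 h ctrl are a description without a test. The means were 28.0 ± 2.67, 187 ± 21.1 and 305 ± 10.2 RPM (SD, n = 3 each).

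The 240 h libraries were not in the contrast on which Tgm2 was chosen, although earlier results of these data were known. In 240 h ctrl, Tgm2 had 22.0, 23.8 and 25.5 RPM, and in 240 h kd 62.7, 68.9 and 62.5 RPM, with no overlap. It was therefore still higher after 240 h of knockdown, by 1.44 on the log2 scale (limma adjusted p = 3.84e-11, SE 0.07). Against 240 h ctrl in place of 48 h ctrl, the 72 h kd libraries were higher by 3.68 (SE 0.06), although time in culture differs between these groups. From 72 h to 240 h of knockdown Tgm2 went from a mean of 305 to 64.7 RPM, a log2 difference of -2.24 (SE 0.04). Both values start from the 72 h rise and are likewise given without a test. The order of group means was thus 240 h ctrl, 48 h ctrl, 240 h kd, 48 h kd and 72 h kd. Its 2 lowest, the ctrl groups, lay closest, at 23.8 ± 1.72 and 28.0 ± 2.67 RPM, with 25.5 RPM as the highest 240 h ctrl library and 26.0 RPM as the lowest 48 h ctrl library.

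**Figure D1:**
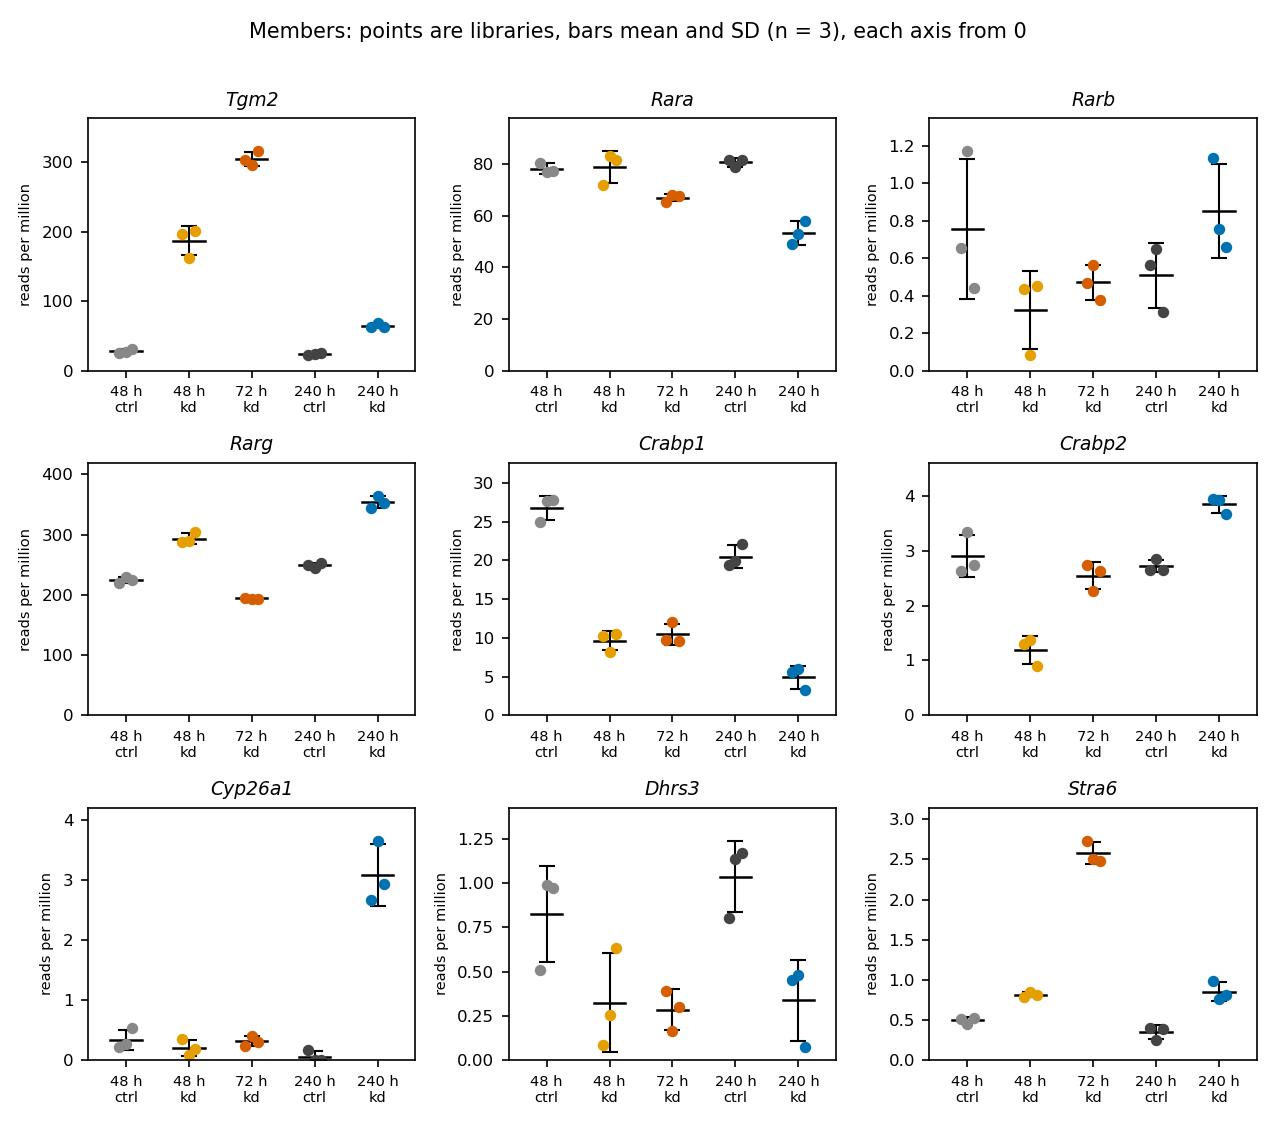
Level of each of the 9 genes (vertical axis, RPM, each panel from 0) in the 5 groups (horizontal axis). Points are libraries and bars are the mean and SD of 3 libraries. Tgm2 peaks in 72 h kd at 296 to 316 RPM, Crabp1 is lower in all 9 kd libraries than in all 6 ctrl libraries, Cyp26a1 stands out only in 240 h kd, and Stra6 is highest in 72 h kd.

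The span of Tgm2 overlaps that of Rprd1b, a regulator of RNA polymerase II on the opposite strand, and reads were counted over whole spans irrespective of strand. A read in the shared stretch (chr2:158116402-158132297, 15896 bases) therefore counts for both genes. The stretch makes up 52.9% of the Tgm2 span and 15.3% of the Rprd1b span. It holds 77.3% of the exonic bases of the transcript Tgm2-201, including the last exon of 1550 bases. Of the 8 annotated Rprd1b transcripts, 7 end before it, at position 158078207 or earlier. The remaining one, Rprd1b-207, places only its last exon there.

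Rprd1b had 84.6, 85.8 and 90.1 RPM in 48 h ctrl and 228, 197 and 232 RPM in 48 h kd. It had 309, 297 and 325 RPM in 72 h kd, 87.5, 86.7 and 87.9 RPM in 240 h ctrl and 127, 133 and 125 RPM in 240 h kd. Both genes were thus high and low in the same groups. At 48 h the kd mean exceeded the ctrl mean by 159 RPM (SE 12.3) for Tgm2 and by 132 RPM (SE 11.3) for Rprd1b. The gain of Rprd1b equalled 83.0% of that of Tgm2 at 48 h, 80.6% at 72 h against 48 h ctrl, 79.2% at 72 h against 240 h ctrl and 100.4% at 240 h. One more listed gene, Gm20412, lies on the plus strand wholly inside the last exon of Tgm2-201, with 752 bases. It went from 6.13 to 7.68 RPM in 48 h ctrl to 39.2 to 55.6 RPM in 48 h kd, and its gain was between 24.9% and 26.1% of that of Tgm2 in all 4 comparisons. The values of Tgm2 and Rprd1b are uncertain for this reason. Which strand the shared reads came from was not tested, since the files hold 1 value per gene.

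**Figure D2:**
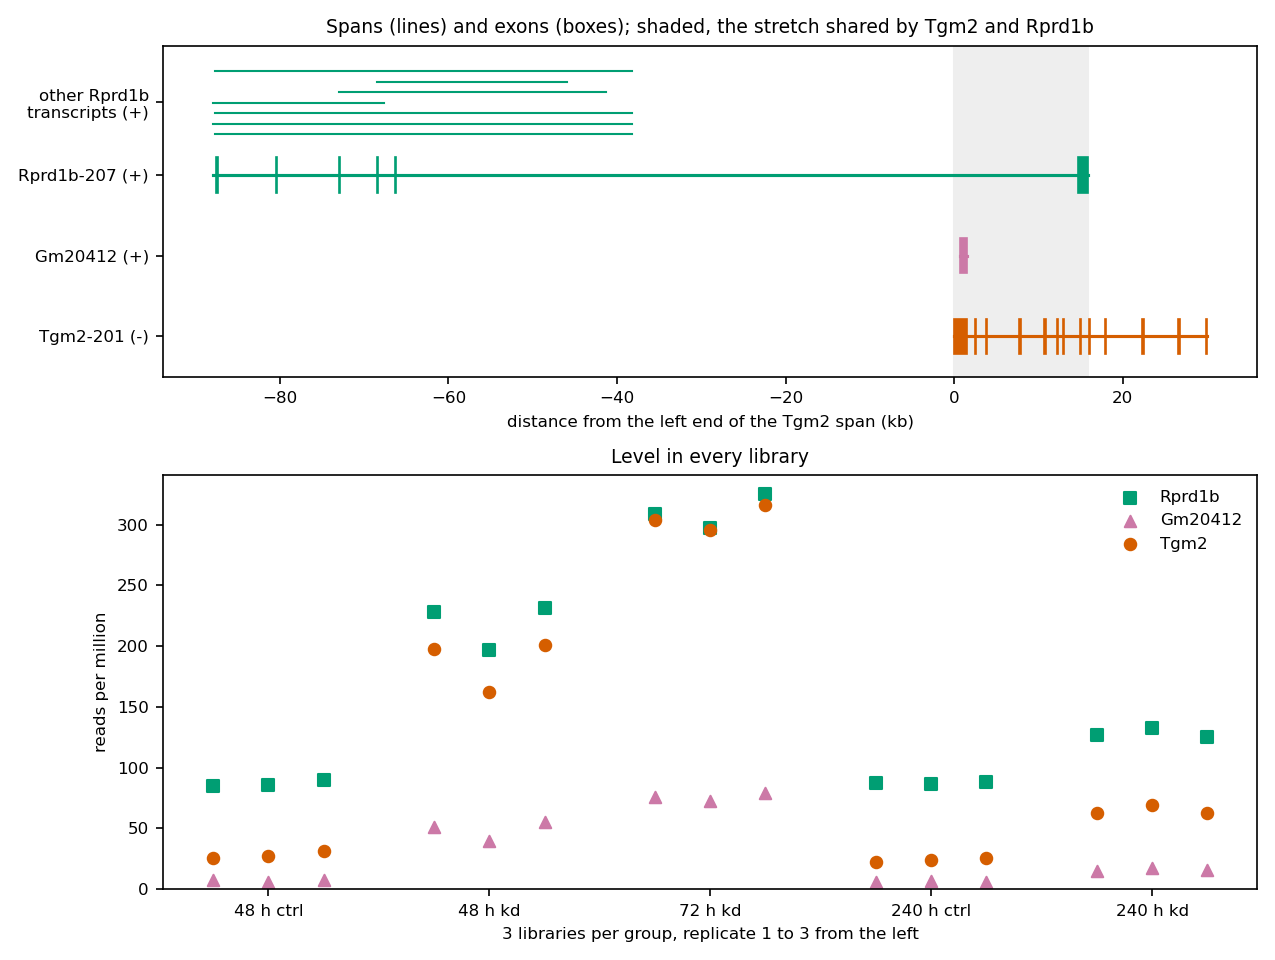
Top, the spans and exons of Tgm2-201, Gm20412 and Rprd1b-207 and the other 7 Rprd1b transcripts, by distance from the left end of the Tgm2 span in kilobases, with strands in brackets and the shared stretch of 15896 bases shaded. Bottom, the level of the 3 genes in RPM in each of the 15 libraries. Tgm2 and Rprd1b draw level in 72 h kd, at means of 305 and 310 RPM.

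The 5 genes whose course over the 15 libraries was nearest to that of Tgm2, by the root mean square difference of log2 values centred on 48 h ctrl, were Sec14l5 (0.65), Adamtsl4 (0.68), Scn3b (0.71), Serping1 (0.77) and Got1l1 (0.78), among 13182 genes ranked, which leave out predicted genes (names of Gm with a number, or ending in Rik) and so also Gm20412, the gene inside the last exon of Tgm2 described above. Its log2 differences between kd and ctrl of 2.76, 3.43 and 1.45 at 48 h, 72 h and 240 h lay beside 2.73, 3.45 and 1.44 for Tgm2. Serping1 encodes the C1 inhibitor of the complement system and Scn3b a sodium channel subunit. Serping1 averaged 7.19 RPM in 48 h ctrl and 7.08 RPM in 240 h ctrl, and its means in kd cells were 22.9 RPM after 48 h, 33.2 RPM after 72 h and 16.5 RPM after 240 h. All 5 were at lower levels than Tgm2, and the next gene in the ranking, Ttc12, followed at 0.80. No member was among these genes.

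Across genes, levels were compared per kilobase of exonic sequence, with reads from introns left in. In 48 h ctrl, Rarg led the 9 genes at 52.7 ± 1.26 RPM per exonic kb (SD, n = 3), followed by Crabp1 at 33.4 ± 1.92, Rara at 18.0 ± 0.459, Tgm2 at 6.07 ± 0.579 and Crabp2 at 2.19 ± 0.290. Dhrs3, Cyp26a1, Rarb and Stra6 followed in this order at 0.282 ± 0.0931 or less, and each of these overlapped its neighbour. In 240 h kd the order was Rarg at 83.0 ± 2.39, Tgm2 at 14.04 ± 0.791, Rara at 12.2 ± 1.03 and Crabp1 at 6.11 ± 1.82. Tgm2 and Rara lay closer than the sum of their SDs, and Crabp1 had moved from the second to the fourth place.

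Changes were tested with limma on log2(RPM + 0.1) among all genes averaging 1 RPM or more, and calls needed both an adjusted p under 0.05 and a log2 change beyond 0.58 in either direction. Of the 8 members other than Tgm2, 4 passed the minimum in the 48 h comparison and 2 were called, both lower, where 9.21% of the genes tested were called (4.29% upward, 4.92% downward). At 72 h against 48 h ctrl, 5 passed and 2 were called, 1 in each direction (background 22.0%, of which 12.2% higher and 9.73% lower). At 240 h, 5 passed and 3 were called, 1 higher and 2 lower (background 17.3%, of which 9.30% higher and 8.01% lower). The 72 h and 48 h comparisons share their control libraries. Passing the minimum depends on the level itself: Cyp26a1 passed at 240 h, and Stra6 at 72 h, only through the group in which they were high, so these calls had to show a difference. They are the only higher calls at those times, and without them 1 member was called at 72 h and 2 at 240 h, all lower.

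Uptake begins with Stra6, the membrane receptor that takes retinol from its carrier in blood. It had 7, 5 and 6 reads in 48 h ctrl, 9, 10 and 9 in 48 h kd and 35, 31 and 33 in 72 h kd. The 240 h libraries held 5, 3 and 5 reads in ctrl and 13, 11 and 11 in kd. All 9 kd libraries thus lay above all 6 ctrl libraries, and the 72 h kd libraries well above the rest. The summed reads, 99 in 72 h kd against 18 in 48 h ctrl, gave a depth-corrected ratio of 5.17 (95% interval 3.11 to 9.08, exact binomial, counting error only), and the log2 difference was 2.17 (SE 0.27). From 72 h to 240 h of knockdown the level went from a mean of 2.58 ± 0.137 to 0.851 ± 0.120 RPM. Stra6 overlaps Ccdc33 and Gm16131, but Ccdc33 had between 0 and 4 reads in every library and Gm16131 none, so no more than these few Stra6 reads can lie in the overlaps.

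Dhrs3, a retinaldehyde reductase that turns the intermediate back into retinol, was near the detection limit throughout. The 48 h ctrl libraries held 7, 11 and 11 reads, those of 48 h kd 1, 3 and 7 reads and those of 72 h kd 5, 2 and 4 reads. Later, 240 h ctrl held 10, 14 and 15 reads, while 240 h kd held 6, 7 and 1 reads. The groups overlapped at 48 h, with 0.510 RPM in the lowest ctrl and 0.632 RPM in the highest kd library, and did not overlap at 240 h. With 14 summed reads against 39 at 240 h, the ratio of kd to ctrl was 0.326 (95% interval 0.164 to 0.614, counting error only). At a mean below 1 RPM in 4 of the 5 groups, it was not tested against other genes.

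Crabp1, a cytoplasmic carrier that binds retinoic acid and is known for steering it to breakdown, was lower in the knockdown at every time. It had 25.0, 27.6 and 27.7 RPM in 48 h ctrl, 10.2, 8.19 and 10.5 RPM in 48 h kd and 9.69, 11.98 and 9.64 RPM in 72 h kd. In 240 h ctrl it had 19.4, 20.0 and 22.1 RPM, and in 240 h kd 5.54, 5.92 and 3.23 RPM. None of the 9 kd libraries reached any of the 6 ctrl libraries. The log2 fold change was -1.47 at 48 h (limma adjusted p = 1.87e-06, SE 0.11), -1.36 at 72 h against 48 h ctrl (adjusted p = 9.47e-12, SE 0.09) and -2.09 at 240 h (adjusted p = 3.37e-08, SE 0.17). Within the knockdown it did not change from 48 h to 72 h by the test (0.12, SE 0.13, limma adjusted p = 0.513) and fell by 1.12 from 72 h to 240 h (limma adjusted p = 1.42e-06, SE 0.17). In control cells the change from 48 h to 240 h was -0.39 (limma adjusted p = 0.00578, SE 0.08), which is short of the size needed for a call. The knockdown effect at 240 h minus that at 48 h was -0.62 (limma adjusted p = 0.0742, SE 0.24), so a difference between the 2 times was not shown by this fit. It was called without 48 h kd replicate 2 (-0.73), 240 h kd replicate 1 (-0.73) or 240 h kd replicate 2 (-0.77), and by limma voom on the recovered reads (-0.62, adjusted p = 0.0453).

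Crabp2, the carrier known for delivering retinoic acid to the receptors in the nucleus, took another course at a lower level. It had 2.62, 3.34 and 2.74 RPM in 48 h ctrl and 1.30, 1.36 and 0.903 RPM in 48 h kd, from 31 to 37 and from 10 to 16 reads. The values were 2.73, 2.27 and 2.64 RPM in 72 h kd, 2.65, 2.84 and 2.66 RPM in 240 h ctrl and 3.94, 3.93 and 3.67 RPM in 240 h kd. It was thus below its control at 48 h, overlapped the 48 h control at 72 h and lay above its control at 240 h. Its 48 h log2 fold change was -1.23 (limma adjusted p = 0.00236, SE 0.24). At 72 h it was -0.18 (adjusted p = 0.447, SE 0.20) and at 240 h 0.49 (adjusted p = 0.0265, SE 0.17), which is not large enough for a call. The effect at 240 h exceeded that at 48 h by 1.72 (limma adjusted p = 0.000170, SE 0.27), so the 2 effects differed beyond the spread between libraries. Within the knockdown it rose from 48 h to 72 h by 1.05 (limma adjusted p = 0.00340, SE 0.24), one of 3 members called there, 2 higher and 1 lower (background 12.8%, of which 6.93% higher and 5.85% lower), where the other higher one, Stra6, passed the minimum only through 72 h kd. From 72 h to 240 h the change of 0.58 (limma adjusted p = 0.00610, SE 0.18) stood at the threshold, where 5 of 6 members tested were called, 3 higher and 2 lower (background 24.4%, from 1811 genes higher and 2041 lower of 15755). Of these 5, Cyp26a1 and Stra6 passed the minimum only through the group in which they were high. This Crabp2 call was lost without 72 h kd replicate 2 (0.50), 240 h kd replicate 1 (0.56) or 240 h kd replicate 2 (0.57), and also with a pseudocount of 1 RPM (0.45), on log2(FPKM + 0.1) (0.52) and after quantile normalization (0.52).

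**Figure D3:**
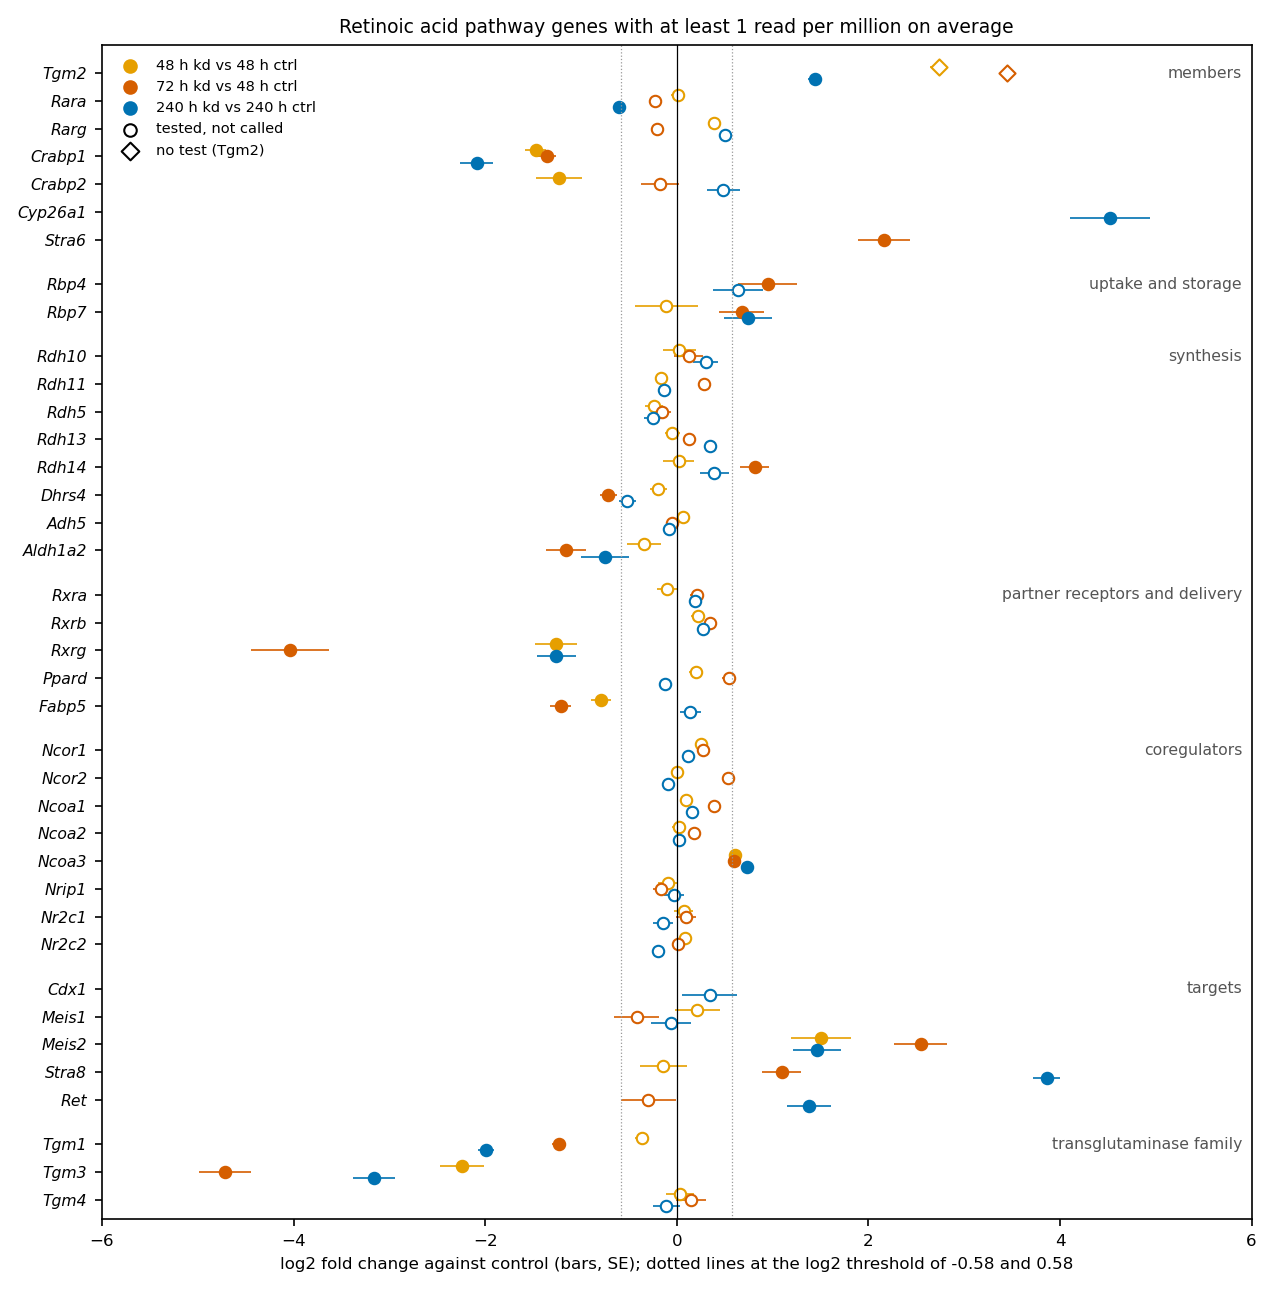
Log2 fold change against control (horizontal axis, bars SE) for the genes of the pathway lists shown here, each with a mean of at least 1 RPM, at 48 h, 72 h (against 48 h ctrl) and 240 h. Filled circles were called, open circles were tested and not called, and diamonds are the 2 Tgm2 values without a test. Crabp1 lies left of the threshold at all 3 times, Rarg inside it at all 3, and Stra8 moves from -0.14 at 48 h to 3.86 at 240 h.

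Rarg was the most abundant of the 3 receptors, which bind retinoic acid on DNA. It had 219, 230 and 224 RPM in 48 h ctrl and 287, 289 and 304 RPM in 48 h kd. In 72 h kd it had 195, 194 and 194 RPM, below every ctrl library. In 240 h ctrl it had 250, 245 and 252 RPM, and in 240 h kd 344, 364 and 353 RPM. Rarg was therefore above its control at 48 h and 240 h and below the 48 h control at 72 h, with no overlap each time. The log2 fold changes of 0.38 at 48 h (limma adjusted p = 0.000101, SE 0.05), -0.21 at 72 h (adjusted p = 2.73e-05, SE 0.04) and 0.51 at 240 h (adjusted p = 2.61e-08, SE 0.04) passed the p threshold but not the size threshold. The effect at 240 h minus that at 48 h was 0.12 (limma adjusted p = 0.147, SE 0.06). Within the knockdown, Rarg fell by 0.59 from 48 h to 72 h (limma adjusted p = 1.50e-06, SE 0.04), a call that needs 48 h kd replicate 3 (-0.57 without it). It then rose by 0.86 from 72 h to 240 h (limma adjusted p = 1.96e-18, SE 0.03).

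Rara, the receptor found in most tissues, overlapped its control early and was lower late. It had 80.7, 77.1 and 77.4 RPM in 48 h ctrl and 71.9, 83.4 and 81.6 RPM in 48 h kd, which overlapped. In 72 h kd it had 65.5, 68.0 and 67.6 RPM. In 240 h ctrl it had 81.7, 78.9 and 81.7 RPM, and in 240 h kd 49.2, 52.8 and 58.2 RPM. Its 48 h log2 fold change was 0.01 (limma adjusted p = 0.948, SE 0.06) and changed sign under 5 of the alternative settings. At 72 h it was -0.23 (adjusted p = 0.000176, SE 0.05) and at 240 h -0.60 (adjusted p = 4.49e-07, SE 0.06). Only the last was large enough for a call, and it was not called without 240 h kd replicate 1 (-0.54) or on log2(FPKM + 0.1) (-0.56). The effect at 240 h minus that at 48 h was -0.61 (limma adjusted p = 0.000102, SE 0.09). Rara and Crabp2 were the 2 members of 4 tested for which the effects were called different, 1 in each direction (background 10.6%, of which 5.41% higher and 5.21% lower). Without 240 h kd replicate 1 this difference was -0.55 and without 48 h kd replicate 2 or on log2(FPKM + 0.1) it was -0.57, all short of the size threshold.

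Rarb, the receptor gene with the repeat shown above in its promoter, was at the lower limit of detection in every group. Its reads numbered 9, 13 and 5 for 48 h ctrl, 5, 1 and 5 for 48 h kd and 6, 7 and 5 for 72 h kd. For 240 h ctrl they numbered 7, 8 and 4, and for 240 h kd 15, 11 and 9. The 48 h groups overlapped and the 240 h groups did not. Summed over 3 libraries, 11 reads in 48 h kd against 27 in 48 h ctrl gave a ratio of 0.429 (95% interval 0.192 to 0.893, counting error only). In the other direction, 35 reads in 240 h kd against 19 in 240 h ctrl gave 1.67 (95% interval 0.932 to 3.10, counting error only), which includes no change. The Rarb span of 388 kilobases overlaps the end of Top2b, which had 1354 to 2117 reads per library, so even these few reads may be shared with it.

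Breakdown of retinoic acid is the work of Cyp26a1, a cytochrome P450 enzyme whose promoter also carries the repeat. The early libraries held few reads, with 3, 3 and 6 for 48 h ctrl, 4, 1 and 2 for 48 h kd and 3, 5 and 4 for 72 h kd, and those of 240 h ctrl held 2, 0 and 0. In 240 h kd it had 35, 53 and 40 reads, or 2.66, 3.65 and 2.94 RPM. It was thus above a handful of reads in this group alone among the 5. The ratio of the summed reads, 128 against 2, was 58.2 at 240 h with a wide 95% interval of 15.8 to 486 (counting error only). From 72 h to 240 h of knockdown the log2 difference was 2.95 (SE 0.29), and against 240 h ctrl it was 4.52 (SE 0.42), a value that rests on the added 0.1 RPM and ranged from 1.95 to 5.51 over the alternatives.

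In control cells, 0 of the 4 members tested were called between 48 h and 240 h by limma, against 1.38% of all genes tested, 0.875% higher and 0.504% lower. The unadjusted p was under 0.05 for 2 of them, and limma voom on the recovered reads also called 0, of 5 members. Rarg (0.15, SE 0.04, limma adjusted p = 0.0306) and Crabp1 passed the p threshold there without the size, and Rara and Crabp2 overlapped between the ctrl groups. Set against 240 h ctrl, the 72 h kd libraries gave 2 calls among 5 members, 1 in each direction (background 25.5%, of which 14.3% higher and 11.1% lower), Crabp1 at -0.97 (limma adjusted p = 5.12e-07, SE 0.10) and Stra6, which passed the minimum only through 72 h kd.

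Beyond the members, 57 genes of the pathway and of the transglutaminase family were followed as complete lists. At 48 h, 30 passed the minimum, of which 2 were higher and 4 lower, with a median log2 fold change of -0.02 against 0.01 over all genes tested. At 72 h 33 passed, of which 7 were higher and 7 lower (median 0.13, all genes 0.02). At 240 h 34 passed, of which 6 were higher and 4 lower (median 0.09, all genes 0.01). The shares called, 20.0%, 42.4% and 29.4%, stood beside 9.21%, 22.0% and 17.3% of all genes. Some of these genes passed the minimum only through the group in which they were high, which fixed the direction of their calls. They were 1 of the 2 higher calls at 48 h, 2 of 7 higher and 2 of 7 lower at 72 h, and 2 of 6 higher and 1 of 4 lower at 240 h, among them Rxrg at 72 h and Tgm3 at 72 h and 240 h.

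Among 12 targets of retinoic acid, 4 passed the minimum at 48 h with 1 higher, 6 at 72 h with 3 higher and 7 at 240 h with 4 higher, beside 4.29%, 12.2% and 9.30% of all genes called higher, and the rest of these were not called. The only one at 48 h, 2 of the 3 at 72 h and 2 of the 4 at 240 h passed the minimum only through the kd group, so their calls had to be higher. Stra8, a gene needed for entry into meiosis, rose from 32, 21 and 25 reads per library of 240 h ctrl to 383, 460 and 444 reads per library of 240 h kd, while 48 h ctrl held 20 to 26 reads and 48 h kd 17 to 25 reads. Its log2 fold change was -0.14 at 48 h (limma adjusted p = 0.715, SE 0.24), 1.10 at 72 h (adjusted p = 4.72e-05, SE 0.20) and 3.86 at 240 h (adjusted p = 1.52e-12, SE 0.14). The homeobox gene Meis2 is one of these, with means of 0.565 RPM in 48 h ctrl and 0.851 RPM in 240 h ctrl, and its log2 differences of 1.51, 2.55 and 1.46 are given as a description. The receptor tyrosine kinase Ret was called at 240 h alone (1.38, SE 0.23, limma adjusted p = 0.000116). Cdx1 and Meis1 were tested at 240 h and not called.

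**Figure D4:**
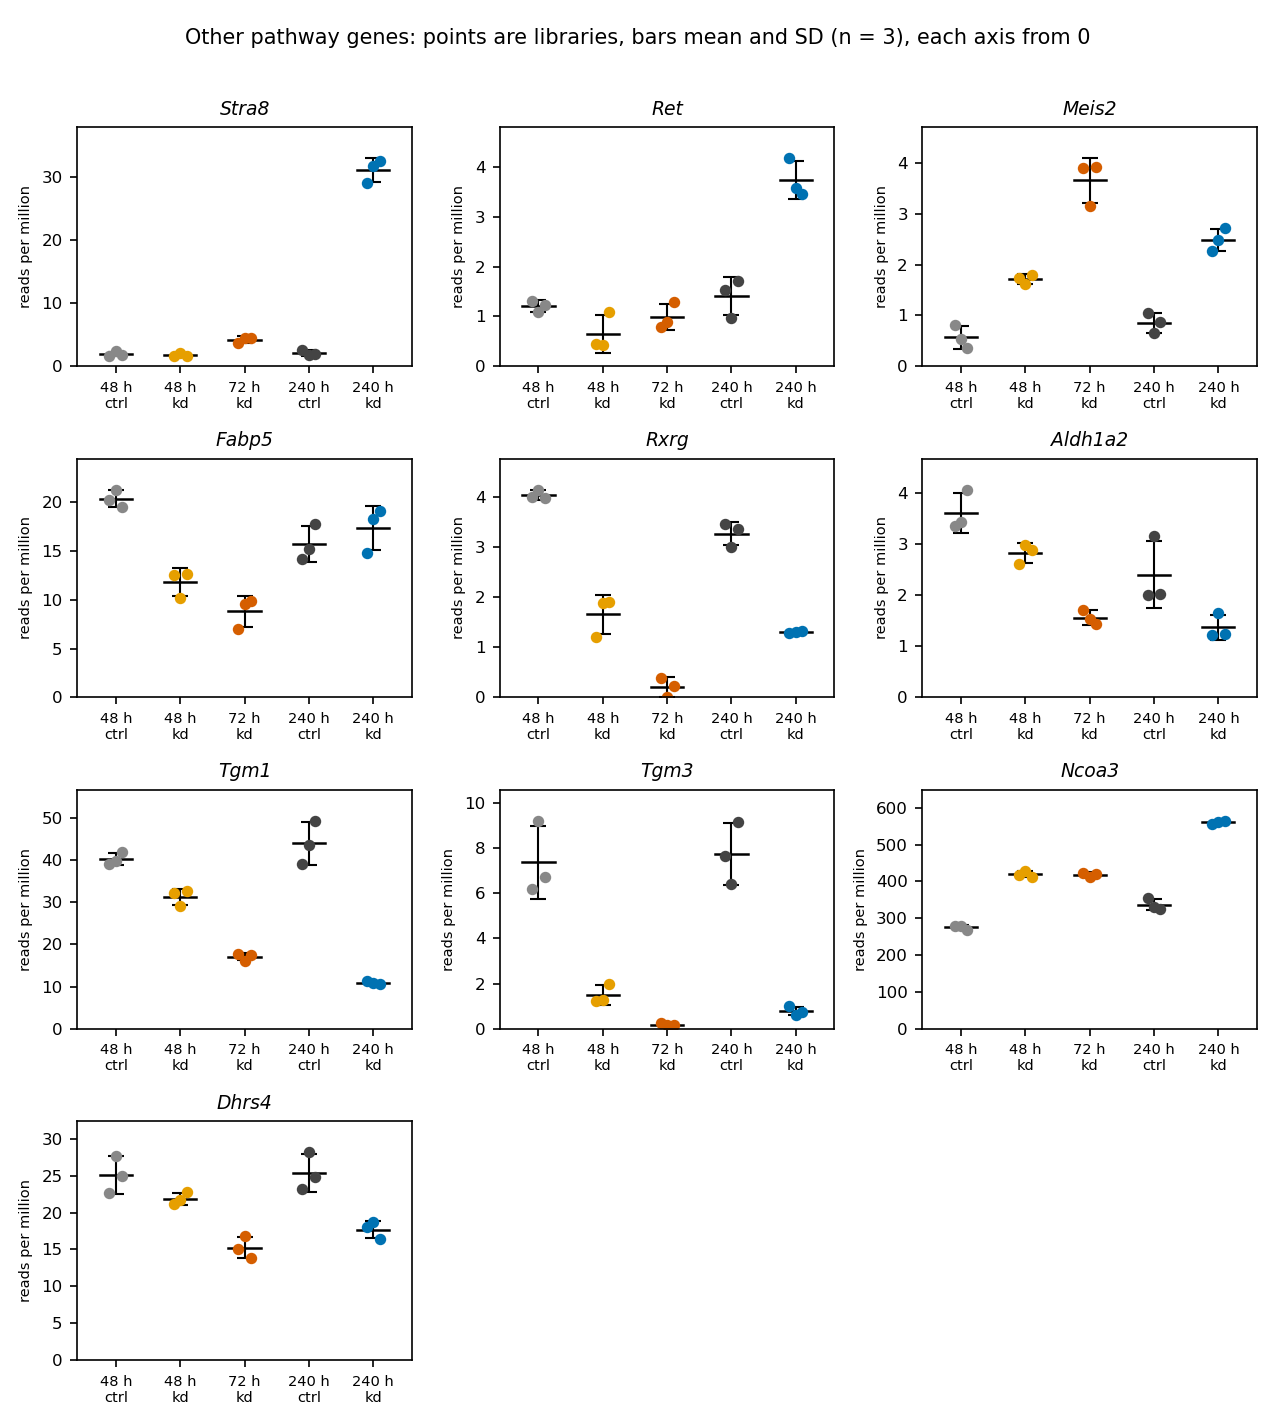
Level (vertical axis, RPM, each panel from 0) of 10 pathway genes that are not members in the 5 groups. Points are libraries and bars are the mean and SD of 3 libraries. Stra8 and Ret stand out in 240 h kd, Meis2 in 72 h kd, and Rxrg and Tgm3 are lowest in 72 h kd.

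Among the carriers and partner receptors, Fabp5, which can bring retinoic acid to the receptor Ppard, had log2 fold changes of -0.79 at 48 h (limma adjusted p = 0.000184, SE 0.11), -1.21 at 72 h and 0.14 at 240 h. The retinoid X receptor Rxrg was called lower at all 3 times, at 72 h after passing the minimum only through 48 h ctrl, and had 45 to 55 reads in 48 h ctrl against 0 to 5 in 72 h kd. The abundant partners Rxra and Rxrb were not called at any of the 3 times. The 5 partner and delivery genes all passed the minimum, with 2, 2 and 1 called at the 3 times, all lower. Of 8 uptake and storage genes, 2 passed at 48 h and 1 was called, lower. At 72 h all 3 that passed were called, 2 higher and 1 lower, and at 240 h 1 of 3, higher. Of all genes, 9.21%, 22.0% and 17.3% were called, with 4.92%, 9.73% and 8.01% lower. Rbp7 was called higher at 72 h (0.68) and 240 h (0.74) and Rbp4 at 72 h (0.95), from at most 34 reads in a library. These calls were lost when single libraries were left out, Rbp7 at 72 h (0.56 to 0.64) without 48 h ctrl replicate 3 or 72 h kd replicate 1 or 2, Rbp7 at 240 h (0.63 to 0.72) without 240 h ctrl replicate 1 or 240 h kd replicate 2 or 3, and Rbp4 (0.58 to 0.77) without 48 h ctrl replicate 2 or 72 h kd replicate 2.

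Of the 14 genes of retinoic acid synthesis, 8 passed the minimum at each time. At 48 h limma called 0 of them, with 3 at an unadjusted p under 0.05, and limma voom also called 0. At 72 h 3 of 8 were called and at 240 h 1 of 8, beside 9.21%, 22.0% and 17.3% of all genes at the 3 times. Aldh1a2, an enzyme of the final oxidation step, was called lower at 72 h (-1.16, SE 0.21, limma adjusted p = 3.34e-05) and 240 h (-0.75, SE 0.25, adjusted p = 0.0209), where 240 h kd libraries held 16 to 24 reads and 240 h ctrl libraries 25 to 39 reads. The 240 h call was lost without 240 h ctrl replicate 2 (-0.54), 240 h kd replicate 1 (-0.67) or 240 h kd replicate 3 (-0.69). At 72 h Dhrs4 was also lower (-0.72, SE 0.09, limma adjusted p = 2.38e-07) and Rdh14 higher (0.81, SE 0.15, adjusted p = 5.22e-05). The other breakdown enzymes, Cyp26b1 and Cyp26c1, stayed below the minimum at every time, with at most 11 and 16 reads in a library. Of 8 coregulators, only the coactivator Ncoa3 was called, higher at all 3 times by 0.61, 0.60 and 0.73, and at 72 h it fell under the size threshold (0.53) when libraries were centred on their medians. That is 12.5% of this list, beside the same shares of all genes. Its span overlaps Sulf2.

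Of the other 8 genes of the transglutaminase family, 3 passed the minimum at each of these times, and 1, 2 and 2 of them were called, all lower, beside 4.92%, 9.73% and 8.01% of all genes called lower. Tgm3 had 76 to 102 reads in 48 h ctrl, then 14 to 22 reads by 48 h and 2 to 3 reads by 72 h of knockdown, a log2 fold change of -2.24 at 48 h (limma adjusted p = 2.09e-05, SE 0.23). At 72 h and 240 h it passed the minimum only through the ctrl groups, so its differences of -4.72 (SE 0.27) and -3.16 (SE 0.22) are a description. For Tgm1 the values were -0.36 at 48 h (limma adjusted p = 0.00248, SE 0.07, not called), -1.23 at 72 h and -1.99 at 240 h (adjusted p = 1.42e-11, SE 0.09). Tgm4 was tested and not called at any of them.

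Markers of other cell types moved with some of these groups. The summed level of 6 neural progenitor markers was 57.1 to 63.9 RPM without knockdown at 48 h and 57.8 to 60.1 RPM at 240 h, against 74.8 to 85.3, 94.9 to 103 and 124 to 128 RPM after 48 h, 72 h and 240 h of knockdown, with Neurog2 at 0 in every group but 240 h kd. These markers did not move together, as Sox1 was called higher at 48 h and 72 h (1.31 and 1.75) and Pax6 lower (-1.45 and -1.74), while Nes had -0.44 and -0.50 and was not called. At 240 h Sox1 and Nes were called higher (1.56 and 0.65) and Pax6 was not called. The sum of 6 trophoblast markers was 92.0 to 101 RPM without knockdown at 48 h and 79.3 to 89.1 RPM at 240 h, against 62.4 to 68.5, 168 to 175 and 161 to 164 RPM in the kd groups, in the same order. Of these, only Tfap2c of 3 tested was called at 48 h (lower) and 72 h (higher), and 5 of 5 tested were called higher at 240 h (9.30% of all genes), 2 of which passed the minimum only through 240 h kd. The sum of 6 fibroblast markers lay between 5.63 and 9.09 RPM in 48 h ctrl, 48 h kd, 72 h kd and 240 h ctrl and at 19.4 to 23.1 RPM in 240 h kd, with Lum at 0 in 48 h ctrl, 48 h kd and 240 h ctrl and Dcn at 0 in 48 h kd. Both fibroblast markers tested at 48 h and 72 h were called, Col1a1 higher (0.73 and 0.79) and Thy1 lower (-0.96 and -1.09), and at 240 h Col1a1 and Col1a2 of 3 were called higher (1.79 and 1.95), Col1a2 after passing the minimum only through 240 h kd. For 8 primitive endoderm markers these ranges were 33.3 to 35.5 and 43.2 to 47.0 RPM without knockdown, against 21.6 to 22.6, 23.1 to 24.0 and 48.2 to 58.4 RPM with it. Of 5 tested at 48 h and 6 at 72 h, Sox7 (-1.68 and -3.12) and Col4a1 (-0.89 and -0.68) were called lower, Sox7 after passing only through 48 h ctrl. Of 6 tested at 240 h, Dab2 (0.89), Gata6 (1.08) and Pdgfra (1.18) were called higher and Sox7 lower (-1.23). The 6 mesoderm markers summed to 5.50 to 8.602 RPM over the 15 libraries, with Kdr at 0 in 48 h kd. Of these, 1 of 2 tested at 48 h was called lower and 0 of 1 tested at 72 h was called. At 240 h both tested were called, 1 higher and 1 lower (17.3% of all genes called). The higher one passed the minimum only through 240 h kd. The part of these cell types in the values of the members was not tested.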

How the data were processed

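RNA-seq was analysed in 15 libraries, 5 groups of 3 taken from the sample labels. According to the study's methods and the submitters' processing notes, the authors aligned single-end reads to mm10 (GRCm38.p6) with STAR 2.7.0c, counted reads per gene with GenomicRanges and Rsamtools in R 4.0.3 and tested them with DESeq2 1.30.0. The values deposited by the authors are FPKM, 1 per gene and library, for the same 55228 genes. The annotation used for counting reads is not given in the sources used here (a later GENCODE release is named for the ChIP-seq peaks only), and 53297 genes (96.5%) matched GENCODE M21 in position and symbol. That release gave identifiers, strand and exons.

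The deposited FPKM was checked by multiplying it with the gene span. This gave whole reads for 100% of values (tolerance 0.001), so FPKM is per kilobase of the whole span, introns included. Reads summed over genes exceeded the recovered totals by 7.38% to 8.34%, and overlapping genes share reads whatever their strand.

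RPM (reads per 1000000 reads of the library) was computed as FPKM times span. Changes were tested two-sided on log2(RPM + 0.1) with limma 3.58.1 under R 4.3.3 (lmFit, then eBayes with trend). Genes averaging 1 RPM or more in the compared libraries were kept and p-values adjusted by Benjamini-Hochberg over all genes tested. Fold changes are on the log2(RPM + 0.1) scale, which understates those of low genes. Comparisons used only the libraries of their groups, and the interaction used 12. Tgm2 is given no p-value where 48 h or 72 h libraries enter. Exact permutation tests were left out, as 3 against 3 libraries cannot reach p = 0.05.

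The members and lists were chosen with earlier results of these data known. Named are the members, overlapping genes, called genes of the role lists and the 5 genes nearest to Tgm2, leaving out predicted genes. Intervals of read ratios are exact binomial at 95% and cover counting error only, since the reads carry no molecular identifiers. Alternatives were a pseudocount of 1 RPM, no minimum, a minimum of 5 RPM, log2(FPKM + 0.1) with at least 0.5 FPKM, median centring, quantile normalization, 1 fit of all 15 libraries, the replicate number as a block, limma voom on recovered reads (mean of at least 10) and each library left out. The code of the test was run on simulated counts with the same dispersion for every gene and no library effects besides depth. That run does not address the spread between the real libraries. Of the genes in the lists, 3 enter the counts but are not reported here by name. Python 3.11.15, numpy 2.4.6, pandas 2.3.3, scipy 1.17.1 and matplotlib 3.10.9 were used.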

Additional observations from a re-analysis of the deposited data

Results flagged for a closer look

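By the interaction term of limma over 12 libraries, 2 of 4 members and 6 of 33 other genes of the lists responded to knockdown differently after 240 h than after 48 h, beside 10.6% of all genes tested. Of the 6, 4 are named here. Among the members, the difference (240 h minus 48 h, log2) was 1.72 for Crabp2 (SE 0.27, adjusted p = 0.000170), from effects of -1.23 and 0.49, and -0.61 for Rara (SE 0.09, adjusted p = 0.000102), from 0.01 and -0.60. The Rara difference was short of the size threshold without 240 h kd replicate 1 (-0.55), without 48 h kd replicate 2 (-0.57) or on log2(FPKM + 0.1) (-0.57).

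Among targets of retinoic acid it was 3.999 for Stra8 (SE 0.26, limma adjusted p = 8.67e-09) and 2.29 for Ret (SE 0.43, adjusted p = 0.000865). In the fit of the 48 h libraries by themselves, Ret lay below the minimum, so it entered the fit of 12 libraries only through those of 240 h.

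For Fabp5 the difference was 0.93 (SE 0.16, limma adjusted p = 0.000438), from effects of -0.79 at 48 h and 0.14 at 240 h, and for Tgm1 it was -1.63 (SE 0.11, limma adjusted p = 1.66e-08), from -0.36 and -1.99.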

How the results depend on the processing

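For the members, 675 of the recomputed values kept their direction and their side of the threshold, 12 lost a call, 4 gained one, 6 changed sign and 1 value without a test, Tgm2 in 72 h kd against 48 h ctrl, moved to 3.32 on the log2(FPKM + 0.1) scale. For the other genes of the lists these numbers were 1122, 55, 0, 3 and 0.

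The counts of called genes fell under a minimum of 5 RPM and under log2(FPKM + 0.1) with a minimum of 0.5 FPKM, which both test fewer genes. The FPKM setting also changes the scale, and the part of each in the fall was not tested. In the order minimum of 5 RPM, then FPKM, they went from 1443 to 798 and 456 at 48 h, from 3427 to 2061 and 1548 for 72 h kd against 48 h ctrl, from 2749 to 1480 and 1016 at 240 h, and from 3980 to 2475 and 1901 for 72 h kd against 240 h ctrl. They went from 1993 to 1109 and 857 between 48 h and 72 h kd, from 3852 to 2275 and 1803 between 72 h and 240 h kd, from 1676 to 1110 and 664 for the difference of effects, and from 216 to 94 and 54 between the ctrl groups, where a pseudocount of 1 RPM gave 113. The called members other than Tgm2 went from 2 to 1 under both settings at 48 h, for 72 h kd against either control and for the difference of effects, from 3 to 1 between 48 h and 72 h kd and from 5 to 2 between 72 h and 240 h kd. At 240 h they went from 3 to 1 with FPKM. With no minimum they rose to 5 at 240 h and to 4 for 72 h kd against 240 h ctrl, since low members then enter, and limma voom called 4 for the difference of effects.

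With each library left out in turn, the called genes numbered 1204 to 1513 at 48 h, 3348 to 3452 for 72 h kd against 48 h ctrl, 2545 to 2772 at 240 h, 3858 to 4015 for 72 h kd against 240 h ctrl, 1770 to 2102 between 48 h and 72 h kd, 3684 to 3864 between 72 h and 240 h kd and 1449 to 1725 for the difference of effects. Between the ctrl groups they ranged from 96 without 48 h ctrl replicate 3 to 299 without 240 h ctrl replicate 3. The cause was not tested. The members called varied by at most 1.

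The sign changed in 5 results. Rara at 48 h was -0.0077 with median centring and ranged from -0.033 to 0.074 with single libraries left out. In the same way Crabp2 between the ctrl groups ranged from -0.15 to 0.018, Rprd1b there from -0.0085 to 0.036, Smarcb1 between 48 h and 72 h kd from -0.34 to 0.0099 and its difference of effects from -0.040 to 0.31.

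Replicate numbers did not pair the libraries, since same-numbered deviations correlated at -0.228 to 0.196 and only 4 of 21 pairs exceeded 0.1. With the replicate block, 1365 genes were called at 48 h, 3422 for 72 h kd against 48 h ctrl, 2759 at 240 h, 324 between the ctrl groups and 1650 for the difference of effects.

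Depth limits Rarb, Dhrs3, Stra6 and, outside 240 h kd, Cyp26a1, with at most 35 reads in a library.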
